A study of Homo sapiens with 5 samples.

Results

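Heat shock proteins and cytosolic chaperones were examined as a group of 36 genes out of 23459 in the count table, to see whether raised JUN moved the protein-folding machinery of mammary epithelial cells. The genes were taken from a list of symbols, and each was found in the table by its Entrez identifier. HSPB11 was found under its current RefSeq name, IFT25. Of the 36 genes, 34 had enough reads to be tested, whereas HSPA1L and CRYAB did not.

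The cells were MCF10A SAM cells, an immortalised human mammary epithelial line with the Synergistic Activation Mediator, and the labels say that single clones were picked. Both groups carried dCas9-VP64 (dead Cas9 with the activator VP64) and MCP-p65-HSF1, a fusion that contains part of the heat shock factor HSF1, so that neither group is free of HSF1 sequence in its activator. Cells of the control group were infected with a non-targeting guide (NTC, 3 libraries) and cells of the other group with sgJUN#1, a guide against the JUN promoter (2 libraries). Messenger RNA was sequenced at its 3′ end, and values are given as counts or as CPM, which are counts divided by the scaled library total and set to a common total. In bulk RNA, fewer cells that express a gene and less of its RNA per cell cannot be told apart.

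Chaperones help other proteins to fold and keep unfolded ones from clumping. HSP70 proteins bind short exposed stretches of a client, J-domain proteins bring clients to them, HSP110 and BAG proteins exchange their nucleotide, HSP90 matures kinases and steroid receptors, and the closed chambers of HSP60 in mitochondria and of CCT in the cytosol enclose whole proteins. Under heat or other proteotoxic stress, HSF1 forms trimers and binds heat shock elements, which are inverted repeats of the unit GAA, in front of the inducible members of these families.

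Library totals lay between 2455627 and 4988062 counts, and a floor of 3 counts, the most that a count of 0 allows, stood at 0.619 to 1.22 CPM. JUN, the targeted gene, had 25.03, 36.2 and 9.32 CPM in NTC replicates 1, 2 and 3 and 171.5 and 265.5 CPM in sgJUN#1 replicates 1 and 2, so that every sgJUN#1 value exceeded every NTC value (edgeR adjusted p-value 0.0733). The epithelial markers CDH1, EPCAM, KRT5, KRT18, ITGB4, TP63 and EGFR were detected in each library, while KRT17 had no count in NTC replicate 1. PTPRC, PECAM1, CD3E, COL1A1 and COL3A1, which mark leukocytes, endothelium, T cells and fibroblasts, had at most 11 counts in any library. Over all genes, NTC replicate 3 stood farther from each of the other 4 libraries than any of these did from each other (chi-square over its degrees of freedom 13.7 to 30.8, against 7.62 to 13.01). It was also low in most chaperone genes, and 14 of the 34 tested ones turned sign without it. Without sgJUN#1 replicate 1, 13 turned sign. Of the 8 epithelial markers, KRT5, ITGB4 and EGFR were highest in NTC replicate 3, at 454.3, 292.3 and 673.4 CPM, and the other 5 in an sgJUN#1 library. EPCAM was 5.42-fold higher and ITGB4 5.85-fold lower in sgJUN#1 (edgeR adjusted p-values 0.210 and 0.459), and the part of these markers in the chaperone values was not tested.

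The promoters of some of these genes carry the sequence that HSF1 is known to read, and examples are shown here. The windows were RefSeq promoters on GRCh38.p14, from 250 bases before to 50 after the annotated start, and 32 of the 36 genes had one. A 3-unit element, GAANNTTC followed after any 2 bases by a further GAA, was searched on both strands with overlapping matches allowed. It was found in 4 of the 32 windows (12.5%), and in 0.487% of all 27305 windows of the table. Among members classed as heat-inducible from general knowledge it was in 2 of 13 windows (15.4%), and among the others in 2 of 19 (10.5%). The lines below give it in capitals, and each is written 5′ to 3′ along the gene.
HSPA8 (chr11:123062167-123062203, minus strand, 55 to 43 bases before the start): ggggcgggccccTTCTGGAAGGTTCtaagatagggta
CHORDC1 (chr11:90223075-90223121, minus strand, 60 to 38 bases before the start): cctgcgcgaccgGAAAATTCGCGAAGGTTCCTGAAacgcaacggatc
DNAJB6 (chr7:157336861-157336897, plus strand, 131 to 119 bases before the start): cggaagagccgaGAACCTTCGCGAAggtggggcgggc
DNAJA1 (chr9:33025268-33025296, plus strand, 3 to 15 bases after the start): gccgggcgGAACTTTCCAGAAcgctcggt

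The CHORDC1 run holds 3 overlapping matches, and HSPA8 has 2 separate ones, of which the nearer to the start is shown. The shorter 2-unit forms GAANNTTC or TTCNNGAA, which lie within every 3-unit match, were found in 11 of the 32 windows (34.4%) and in 13.7% of all windows. They are shown for the inducible HSP70 pair, because the copies differ there by little, and for HSPB8. HSPB8 was picked because its values were the lowest relative to NTC. Its window holds 2 separate matches, of which the nearer to the start is shown. The windows of HSPA9, HSPB1 and TCP1 also hold a 2-unit form and are not printed.
HSPA1A (chr6:31815425-31815456, plus strand, 106 to 99 bases before the start): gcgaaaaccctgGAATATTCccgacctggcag
HSPA1B (chr6:31827621-31827652, plus strand, 105 to 98 bases before the start): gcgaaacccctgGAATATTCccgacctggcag
HSPB8 (chr12:119178831-119178862, plus strand, 88 to 81 bases before the start): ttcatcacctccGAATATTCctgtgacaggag

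The HSPA1A stretch also lies in the window of HSPA1L, which is transcribed from the opposite strand. A match describes letters only and was not taken as a bound site.

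Over the whole table, 28 of 13616 tested genes passed the threshold, an adjusted p-value under 0.05 in edgeR's quasi-likelihood test with Benjamini-Hochberg adjustment, which is 0.206% (0.0808% higher and 0.125% lower in sgJUN#1). Of the 34 tested chaperone genes, 0 passed it. The unadjusted p-value was under 0.05 for 2 chaperone genes, DNAJB1 and HSPB8, against 8.38% of all tested genes, and DESeq2 called 0 of the 34 against 1.13% of all genes. Without NTC replicate 3, edgeR again called 0 of the 34, while it called 0.439% of all genes. The same held without NTC replicate 2 (0.413% of all genes), with the replicate number as a block (0.756%) and, for all 36 genes, without a filter on low counts (0.756%).

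Apart from HSPB8, the differences lay between -0.32 and 0.53 on the log2 scale. Log2 fold changes (log2FC) of sgJUN#1 over NTC ran from -1.45 to 0.53 with a median of 0.12, whereas all tested genes had a median of -0.01. In total 24 of the 34 were higher in sgJUN#1 and 10 lower. This split turned with single libraries of either group. Without NTC replicate 3, 10 were higher and 24 lower with a median of -0.08, and without sgJUN#1 replicate 1, 13 were higher and 21 lower with a median of -0.05. For 32 of the 34 (94.1%) the log2FC was within 0.5 of zero, as for 79.96% of all tested genes and 87.3% of those over 20 CPM on average. The 95% interval lay wholly between -1 and 1 on the log2 scale for 29 of the 34 and for 8091 of all 13616 tested genes, with a median half-width of 0.54 for the chaperone genes, so that most intervals do not bound a difference of 0.5. The plot of fold changes sets each gene beside its interval.

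**Figure D1:**
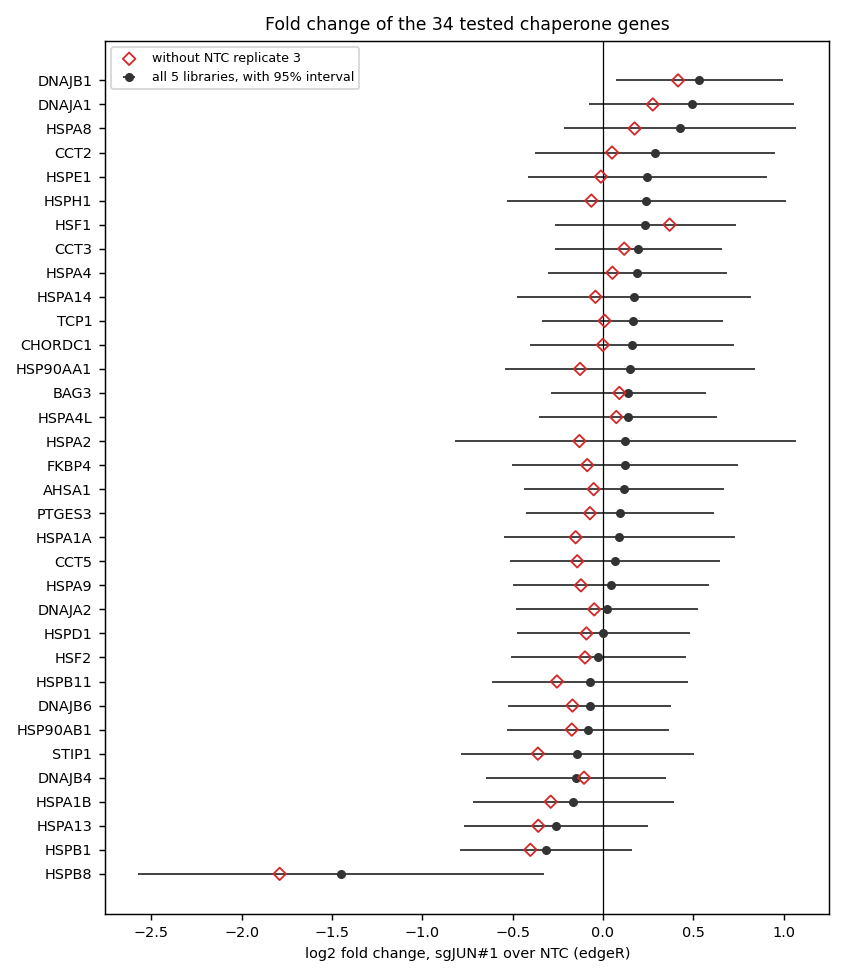
Log2 fold change of sgJUN#1 over NTC for the 34 tested chaperone genes, sorted by value; filled points with bars are the edgeR estimate and its 95% interval from all 5 libraries, and open diamonds the estimate without NTC replicate 3. Only the intervals of DNAJB1 and HSPB8 leave out 0, and most diamonds lie to the left of their points.

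The heat shock factors were examined first, since part of HSF1 is in the activator of both groups. HSF1 (Entrez 3297, GRCh37 chromosome 8, 145515273 to 145538383), the master regulator of the heat shock response, had 53.1, 63.5 and 74.3 CPM in NTC and 84.0 and 65.5 CPM in sgJUN#1. The groups overlapped, with a log2FC of 0.23 (SE 0.223, edgeR adjusted p-value 0.821). Whether any of these reads came from the MCP-p65-HSF1 transgene cannot be told apart from the counts. HSF2 (Entrez 3298, chromosome 6, 122720696 to 122754264), a related factor that can form mixed trimers with HSF1, had 56.7, 44.8 and 43.5 CPM in NTC and 49.7 and 45.1 CPM in sgJUN#1. Its log2FC was -0.03 (SE 0.216). HSF1 was one of only 2 tested members, with DNAJB4, that were not lower in NTC replicate 3 than in the mean of NTC replicates 1 and 2.

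J-domain proteins held the 2 highest fold changes of the group. DNAJB1 (HSP40, Entrez 3337, chromosome 19, 14625581 to 14671203), a stress-inducible partner of HSP70 that is itself an HSF1 target, had 94.3, 80.6 and 67.2 CPM in NTC and 118.1 and 115.6 CPM in sgJUN#1. Each sgJUN#1 value exceeded every NTC value, a log2FC of 0.53 (SE 0.207, 95% interval 0.07 to 0.999). The unadjusted p-value was 0.0284 and the edgeR adjusted p-value 0.521, which is not past the threshold. Without NTC replicate 3 the log2FC was 0.42 (edgeR adjusted p-value 0.626).

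DNAJA1 (Entrez 3301, chromosome 9, 33025271 to 33039905), a J-domain protein of the cytosol with a farnesyl anchor, carries the 3-unit element printed above. It had 90.5, 88.3 and 52.8 CPM in NTC and 110.8 and 105.5 CPM in sgJUN#1. Here too the groups did not overlap, and the log2FC of 0.49 (SE 0.253, edgeR adjusted p-value 0.663) was 0.28 without NTC replicate 3.

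DNAJA2, a mostly constitutive relative, had 50.6, 36.6 and 37.9 CPM in NTC and 42.3 and 42.6 CPM in sgJUN#1, so that the sgJUN#1 libraries lay within the NTC range. DNAJB6, which holds back the aggregation of polyglutamine proteins and was the most abundant of the 5 J-domain members, had 133.7, 148.2 and 113.8 CPM in NTC and 133.1 and 117.0 CPM in sgJUN#1, and its promoter also carries the 3-unit element. DNAJB4 had a log2FC of -0.15. The class was thus split, with 3 of 5 higher in sgJUN#1 and a median of 0.02.

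**Figure D2:**
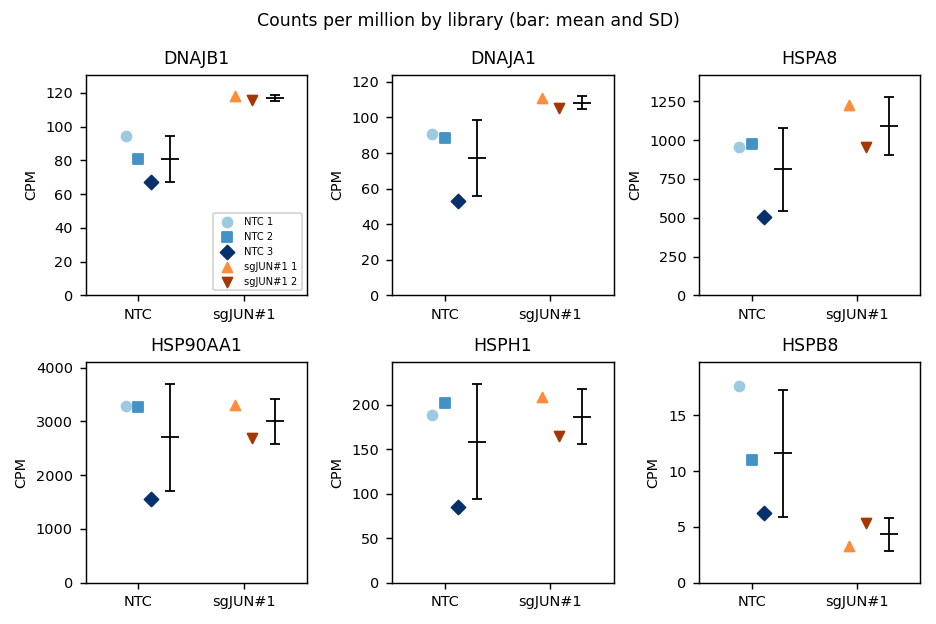
CPM of 6 chaperone genes in each library, with symbols for the 5 libraries and a bar for the mean and SD of the group (NTC n = 3, sgJUN#1 n = 2); each axis starts at 0. DNAJB1 and DNAJA1 were above all NTC libraries in both sgJUN#1 libraries and HSPB8 below them, while HSPA8, HSP90AA1 and HSPH1 overlapped and were lowest in NTC replicate 3.

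HSPB8 (HSP22, Entrez 26353, chromosome 12, 119609360 to 119662660) had the largest difference of the group. This small heat shock protein works with BAG3 to hand misfolded proteins to autophagy. It had 64, 27 and 28 counts in NTC and 16 and 15 in sgJUN#1, which is 17.6, 11.0 and 6.21 CPM against 3.30 and 5.37 CPM. Both sgJUN#1 libraries lay below all NTC libraries, with a log2FC of -1.45 (SE 0.500, 95% interval -2.57 to -0.33). HSPB8 did not pass over all genes, with an edgeR adjusted p-value of 0.459, and leaving out NTC replicate 1, the highest library, brought the log2FC to -0.99. Without NTC replicate 3 it was -1.79 (edgeR adjusted p-value 0.120).

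BAG3 itself had 60.5, 60.6 and 54.6 CPM in NTC and 65.2 and 63.7 CPM in sgJUN#1. The groups did not overlap, but the distance was small, at a log2FC of 0.14 (SE 0.191, edgeR adjusted p-value 0.891). The estimates for the partners HSPB8 and BAG3 had opposite signs, but the interval of BAG3 spanned 0 and neither difference passed the test.

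HSPB1 (HSP27, Entrez 3315), which binds unfolded proteins and actin, had 140.3, 159.1 and 123.3 CPM in NTC and 127.3 and 98.4 CPM in sgJUN#1, a log2FC of -0.32 (SE 0.213, edgeR adjusted p-value 0.744). HSPB11, which is now known as a subunit of the intraflagellar transport complex rather than a chaperone, had a log2FC of -0.07, which turned to 0.04 without NTC replicate 1, to 0.013 without NTC replicate 2 and to 0.017 without sgJUN#1 replicate 1. None of the 3 tested members of this class passed the edgeR threshold. CRYAB, the alpha-B crystallin of lens and muscle, was near the floor with 1, 2 and 4 counts in NTC and 3 and 6 in sgJUN#1.

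Among the HSP70 genes, HSPA8 (HSC70, Entrez 3312, chromosome 11, 122928197 to 122933938), the constitutive cytosolic form and the most abundant HSP70 here, had the highest log2FC. Its levels were 957.5, 976.0 and 502.0 CPM in NTC and 1223 and 958.5 CPM in sgJUN#1. NTC replicate 3 was the low library and sgJUN#1 replicate 2 lay inside the NTC range. The log2FC was 0.43 (SE 0.286, edgeR adjusted p-value 0.744) and 0.18 without NTC replicate 3.

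The inducible forms HSPA1A (Entrez 3303, chromosome 6, 31783320 to 31785723) and HSPA1B (Entrez 3304, chromosome 6, 31795515 to 31798031) overlapped between the groups. HSPA1A, which is made at high rate after heat, had 185.1, 230.4 and 112.0 CPM in NTC and 200.8 and 172.5 CPM in sgJUN#1. HSPA1B had 26.7, 28.5 and 20.9 CPM in NTC and 23.7 and 21.1 CPM in sgJUN#1. Their log2FC values were 0.09 (SE 0.285) and -0.16 (SE 0.247), and the sign for HSPA1A turned to -0.15 without NTC replicate 3.

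The copies are near-identical, so reads may be split between them, more so for HSPA1A. Over their whole transcripts 73.7% of the 50-base stretches of HSPA1A also occur in HSPA1B, and 22.0% of those in its last 500 bases, where 3′ reads lie. In the last 500 bases of HSPA1B, 1.33% also occur in HSPA1A. With both counted as 1 gene the log2FC was 0.06 (edgeR adjusted p-value 0.974).

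HSPA13, a member of the family that sits at microsomes, was the third lowest of the group. It had 44.6, 41.5 and 34.6 CPM in NTC and 36.7 and 30.1 CPM in sgJUN#1, a log2FC of -0.26 (SE 0.227, edgeR adjusted p-value 0.7998). HSPA9 (mortalin, the mitochondrial HSP70), HSPA14 (a partner of ribosomes) and HSPA2 (best known from the testis) had log2FC values of 0.04, 0.17 and 0.12, and of -0.12, -0.04 and -0.13 without NTC replicate 3. HSPA1L, also a testis form, had 8, 3 and 2 counts in NTC and 3 and 1 in sgJUN#1. Of the 7 tested HSP70 genes 5 were higher in sgJUN#1, but 1 of 7 was without NTC replicate 3.

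The HSP110 proteins, which exchange nucleotide on HSP70, were higher on average in sgJUN#1, with intervals that spanned 0. HSPA4, the constitutive form, had 239.8, 199.8 and 160.1 CPM in NTC and 245.4 and 210.4 CPM in sgJUN#1 (log2FC 0.19, SE 0.221, and 0.05 without NTC replicate 3). HSPH1 (HSP105), the inducible form, had 189.0, 202.3 and 84.7 CPM in NTC and 208.5 and 164.9 CPM in sgJUN#1. NTC replicate 3 was again far below the other libraries of both groups. The log2FC of HSPH1 was 0.24 (SE 0.341) with all libraries and -0.06 without NTC replicate 3. HSPA4L had 0.14.

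Among the chaperone genes, HSP90AA1 gave the most reads, with 25.3% to 32.8% of their counts in each library. HSP90AA1 (Entrez 3320, chromosome 14, 102547079 to 102606036), the inducible alpha form, had 3288, 3268 and 1558 CPM in NTC and 3301 and 2701 CPM in sgJUN#1. Apart from NTC replicate 3 the groups lay close together, with sgJUN#1 replicate 2 below both remaining NTC libraries. The log2FC was 0.15 (SE 0.306, edgeR adjusted p-value 0.934) and -0.13 without NTC replicate 3. HSP90AB1 (Entrez 3326, chromosome 6, 44213903 to 44221625), the constitutive beta form, had 964.3, 936.1 and 774.6 CPM in NTC and 949.4 and 735.6 CPM in sgJUN#1, a log2FC of -0.08 (SE 0.200).

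The co-chaperones of HSP90 are PTGES3 (p23), which closes its ATP-bound form, AHSA1, which speeds its ATPase, STIP1 (HOP), which links it to HSP70, FKBP4, which serves steroid receptors, and CHORDC1. PTGES3, the most abundant, had 448.9, 454.2 and 304.8 CPM in NTC and 482.6 and 375.7 CPM in sgJUN#1, with a log2FC of 0.09 (SE 0.233). The 5 genes ran from -0.14 to 0.16, and all 5 were lowest in NTC replicate 3. Without that library all 5 were lower in sgJUN#1, from -0.36 for STIP1 to -0.00052 for CHORDC1, whose promoter carries the longest run of heat shock units printed above.

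HSPD1 (HSP60) had 340.0, 265.0 and 245.5 CPM in NTC and 308.8 and 258.7 CPM in sgJUN#1, a log2FC of 0.00 (SE 0.213), and HSPE1 (HSP10), the lid of the chamber, 0.25 (SE 0.294). Without NTC replicate 3 these were -0.09 and -0.01. HSPE1 (chromosome 2, 198364864 to 198368173) lies inside the annotated span of HSPD1 (198351308 to 198381461) on the opposite strand, and because use of strand in counting was not stated, some of their reads may be shared. TCP1, the alpha subunit of CCT, which folds actin and tubulin, had 502.0, 421.3 and 319.9 CPM in NTC and 487.5 and 441.2 CPM in sgJUN#1 (log2FC 0.16, SE 0.223). CCT2, CCT3 and CCT5 had 0.29, 0.20 and 0.07, and CCT5 turned to -0.14 without NTC replicate 3. Without sgJUN#1 replicate 1 these were -0.03, -0.02 and -0.13, while TCP1 stayed at 0.09. The 4 CCT genes were all lowest in NTC replicate 3, and their median went from 0.18 to 0.03 without it.

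**Figure D3:**
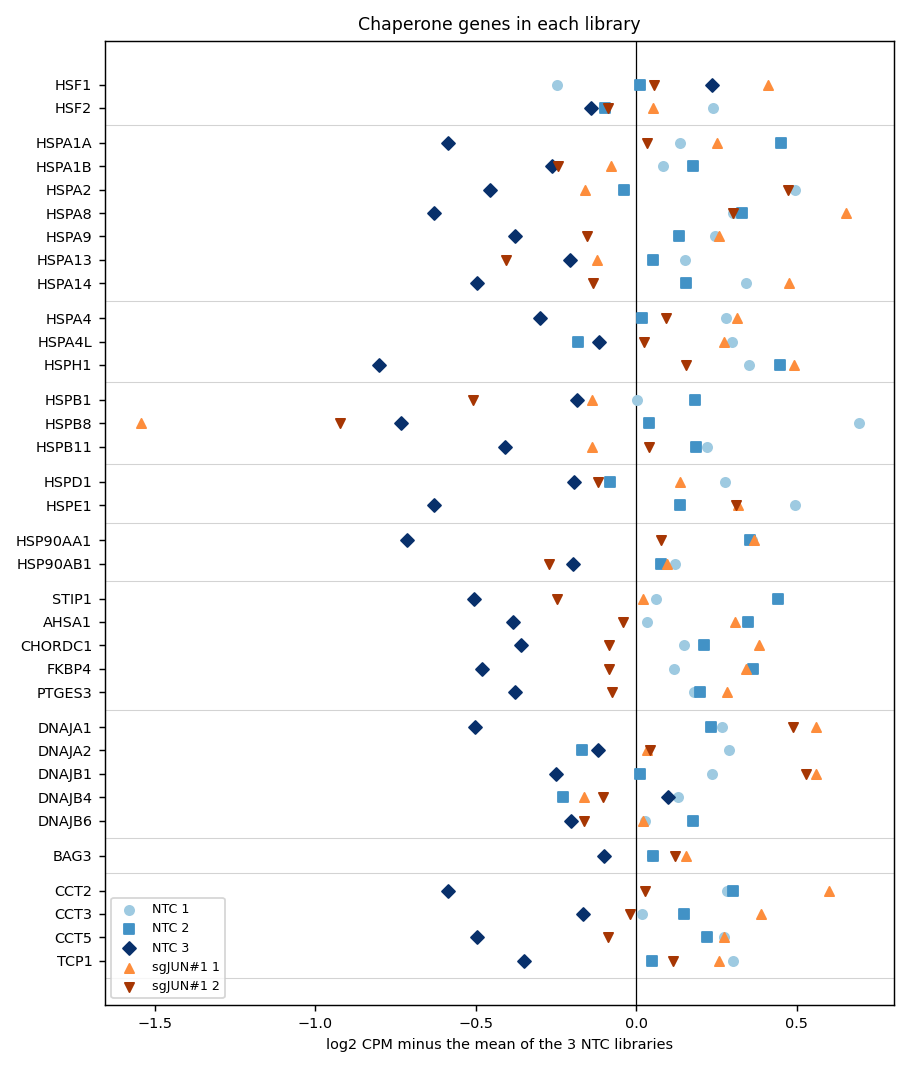
Log2 CPM of each of the 34 tested chaperone genes in the 5 libraries, relative to the mean of the NTC libraries, with genes grouped by class (lines separate the classes). The dark diamonds of NTC replicate 3 lie at the left for most genes, 26 of which had their lowest value there.

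Values of NTC and sgJUN#1 did not overlap for 4 of the 34 genes (DNAJB1, DNAJA1 and BAG3 above, HSPB8 below), that is 11.8%, whereas the same was true of 25% of all tested genes (12.2% above, 12.8% below). The members with the 3-unit element in the promoter window had log2FC values from -0.07 to 0.49 with a median of 0.29 (4 genes). Those with no match in the window ran from -1.45 to 0.53 with a median of 0.09 (27 genes). The 27 include DNAJB1, HSPH1, HSP90AA1, HSPA1A and BAG3, which were classed as heat-inducible. Elements outside the window or with inexact units were not searched. Without NTC replicate 3 the 4 genes had 0.18 (HSPA8), -0.00052 (CHORDC1), -0.17 (DNAJB6) and 0.28 (DNAJA1). Against the mean of NTC replicates 1 and 2, NTC replicate 3 had a median of -0.65 for genes with the element. For those without it the median was -0.52. These numbers describe the lists only.

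More marked than the difference between the groups was that within NTC. The 36 genes made up 0.989% and 0.996% of all counts in NTC replicates 1 and 2, 0.632% in NTC replicate 3, and 1.04% and 0.875% in sgJUN#1. HSP90AA1 alone gave 25.3% of the chaperone counts of NTC replicate 3, but 30.9% to 32.8% in the other 4 libraries. Of the 34 tested genes, 32 were lower in NTC replicate 3 than in the mean of NTC replicates 1 and 2 on the log2 CPM scale, with a median of -0.55. Over all tested genes the median was 0.04 and 46.9% were lower, and over those above 20 CPM on average -0.05 and 54.7%. NTC replicate 3 was the lowest of the 5 libraries for 26 of the 34 (76.5%), as it was for 27.5% of all tested genes and 34.6% of those over 20 CPM on average.

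From general knowledge, but with earlier results of these data known, 14 members were classed as heat-inducible. Of these, 13 were tested and all 13 were lower in NTC replicate 3, with a median of -0.57. The 2 members that were not lower, HSF1 (0.35) and DNAJB4 (0.15), were not in that class. The strongest were HSPH1 at -1.20, HSP90AA1 at -1.07, HSPE1 at -0.94 and HSPA1A at -0.88. The remaining 21 tested members had a median of -0.52, with HSPB8 the lowest at -1.10. Constitutive genes such as HSPA8 (-0.94) and CCT2 (-0.88) were also among the lowest, so that the low library was not limited to inducible forms. JUN was also lowest in NTC replicate 3, at 9.32 CPM. Its part, and that of any technical property of the library, in the low chaperone values was not tested.

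**Figure D4:**
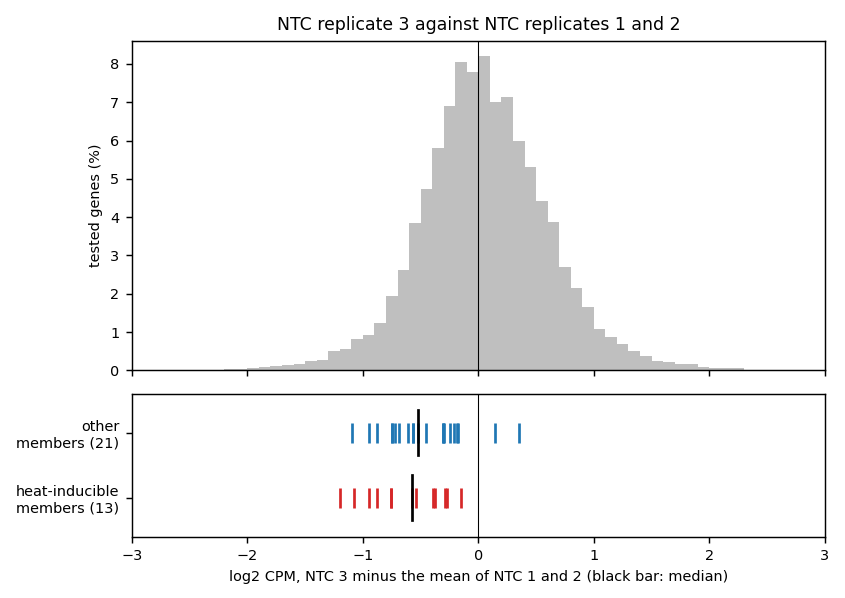
Difference in log2 CPM between NTC replicate 3 and the mean of NTC replicates 1 and 2; grey bars give the share of all 13616 tested genes in steps of 0.1, and the ticks below them each chaperone gene, split into 13 heat-inducible and 21 other members with a black bar at the median. The medians lie at -0.57 and -0.52, while all tested genes centre near 0.

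Inducible genes were also set against mainly constitutive genes of the same class within each library, since a ratio of counts from 1 library does not depend on scaling. With 3 against 2 libraries the exact two-sided permutation test cannot give a p-value below 0.1, and 4 pairs were compared. HSP90AA1 had 3.41, 3.49 and 2.01 times the counts of HSP90AB1 in NTC and 3.48 and 3.67 times in sgJUN#1. The mean log2 ratio differed by 0.31 (exact permutation p = 0.6, adjusted 0.8), and by 0.05 without NTC replicate 3. For HSPH1 over HSPA4 the ratio was 0.788, 1.01 and 0.529 in NTC and 0.850 and 0.784 in sgJUN#1 (difference 0.12, exact permutation p = 0.9, adjusted 0.9), and without NTC replicate 3 the difference was -0.13. Both ratios were thus lowest in NTC replicate 3.

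DNAJB1 over DNAJA2 gave 1.86, 2.19 and 1.77 in NTC and 2.79 and 2.71 in sgJUN#1. The groups did not overlap, and NTC replicate 3 lay with its group. The mean log2 ratio was higher in sgJUN#1 by 0.51, from 0.95 ± 0.162 (SD, n = 3) to 1.46 ± 0.0293 (SD, n = 2), with the smallest p-value the design allows (exact permutation p = 0.1, adjusted 0.4). DNAJA2 alone had a log2FC of 0.02 and DNAJB1 alone 0.53, so this difference largely repeats that of DNAJB1. HSPA1A and HSPA1B together over HSPA8 gave 0.221, 0.265 and 0.265 in NTC and 0.184 and 0.202 in sgJUN#1. The groups again did not overlap, and the mean log2 ratio differed by -0.37 (exact permutation p = 0.2, adjusted 0.4).

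**Figure D5:**
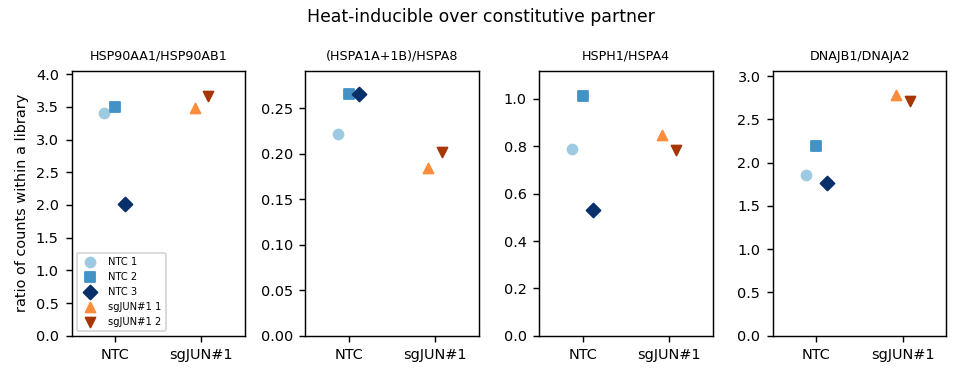
Ratio of the counts of a heat-inducible gene to those of a mainly constitutive gene of the same class in each library, for 4 pairs; axes start at 0 and symbols mark the libraries. HSP90AA1/HSP90AB1 and HSPH1/HSPA4 are lowest in NTC replicate 3, while the groups do not overlap for DNAJB1/DNAJA2 and for the HSPA1 genes over HSPA8.

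The wider folding network was covered by 61 further genes, comprising the remaining CCT subunits, prefoldin, more HSP90 and HSP70 partners, J-domain proteins, small heat shock proteins, mitochondrial partners and genes linked to HSF1. Of these 52 were tested and 0 passed the edgeR threshold, with 1 at an unadjusted p-value under 0.05, and DESeq2 also called 0. In sgJUN#1 36 were higher and 16 lower, with a median log2FC of 0.07, whereas without NTC replicate 3 there were 27 higher and 24 lower with a median of 0.0098. In NTC replicate 3, 37 of the 52 were lower than in the mean of NTC replicates 1 and 2, with a median of -0.21. DNAJB5 had the highest log2FC and PPP5C the lowest. DNAJB5, a J-domain protein, had 1.65, 2.44 and 1.55 CPM in NTC and 2.89 and 3.58 CPM in sgJUN#1, from 6 to 14 counts per library (log2FC 0.796, SE 0.497, edgeR adjusted p-value 0.723).

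PPP5C, a phosphatase that works on HSP90 and its kinase clients, had 18.2, 26.9 and 35.7 CPM in NTC and 14.9 and 13.2 CPM in sgJUN#1. Both sgJUN#1 libraries were below all NTC libraries, as for 12.8% of all tested genes. The log2FC of PPP5C was -0.94 (SE 0.321) and its edgeR adjusted p-value 0.459. NTC replicate 3 was the highest library of PPP5C. Without NTC replicate 3, the lowest log2FC in the wider network was -0.65. The 4 remaining CCT subunits, CCT4, CCT6A, CCT7 and CCT8, had 0.03 to 0.21 and were all lowest in NTC replicate 3, as were the CCT members above.

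Strictly stress-induced and tissue-restricted forms were at or near the floor. HSPA6, an HSP70 gene that is almost silent without stress and is named here after its values were seen, had 2, 2 and 0 counts in NTC and 5 and 4 in sgJUN#1. The 0 in NTC replicate 3 allows up to 0.665 CPM. HSPB6, HSPB7 and CRYAA, also named after their values were seen, had 0 counts in each of the 5 libraries.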

How the data were processed

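The authors deposited unnormalized counts, 1 value per gene and library, made from QuantSeq 3′ mRNA-Seq libraries. The submitters' processing notes name cutadapt 4.2, Bowtie2 2.3.5.1 and hg19, and the methods of the study describe default alignment settings and counting with countOverlaps for its RNA-sequencing, without naming the 3′ libraries. Annotation, strand, multiple alignments and molecular identifiers are not given in the sources used here. PCR copies may thus count as reads, and count floors cover counting error only. Groups came from the sample titles. The study calls its replicates of this comparison biological and gives n = 2, whereas 3 NTC libraries were deposited and used here. Which NTC libraries the study used is not stated. The labels do not say whether the replicates were separate cultures, and p-values measure the spread between these libraries, whatever its source.

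Counts of all 23459 genes were fitted with edgeR 4.0.16 in R 4.3.3 (quasi-likelihood F test, TMM, filterByExpr, robust, group as the only term), which tested 13616 genes. P-values were adjusted by Benjamini-Hochberg over all tested genes. SE is the log2 fold change over the root of F. Log2 CPM used a prior count of 2, and ratios an added 0.5. Alternatives were RLE and library-size scaling, DESeq2 1.42.0, other filters, single libraries left out and the replicate number as a block. The fit was tested on simulated counts with the same dispersion for all genes and no outlying library. That setting does not cover a library that stands apart, as NTC replicate 3 does. All library pairs differed by more than counting noise (chi-square per degree of freedom 7.62 to 30.8).

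The members and lists were chosen with earlier results of these data known. The text gives per-library values for HSF1, HSF2, members past the threshold, members without overlap at an unadjusted p-value under 0.05, the 3 highest and 3 lowest fold changes, the 4 pairs and the most abundant member of each class, and for the wider network those past the threshold and the extremes. Gene positions are GENCODE version 44 mapped to GRCh37.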

Additional observations from a re-analysis of the deposited data

How the results depend on the processing

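No chaperone gene and no gene of the wider network passed the threshold in any of 11 alternatives, which were RLE size factors, library size alone, DESeq2, no filter, at least 10 counts in every library, each of the 5 libraries left out, and the replicate block. Of all genes, DESeq2 called 145, and edgeR called 148 with no filter, 18 under the stricter filter and 103 with the replicate block, and from 10 to 57 when 1 library was left out. The causes were not tested.

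The direction of the group as a whole was not stable. When 1 library was left out, the number of members higher in sgJUN#1 ran from 10 to 26 of 34, the median log2 fold change of the members from -0.080 to 0.24 and that of the heat-inducible members from -0.064 to 0.28. The negative medians came without NTC replicate 3 and without sgJUN#1 replicate 1 (-0.05 and -0.025). With the replicate block, which uses NTC replicate 3 for no contrast, 10 members were higher and the medians were -0.085 and -0.073. Of the 34 members, 14 turned sign with the block, among them HSPA1A (-0.15), HSPH1 (-0.073), HSPD1 (-0.087), HSP90AA1 (-0.13), PTGES3 (-0.083), and DNAJA2 (-0.037), as did the ratio of HSPH1 to HSPA4 (-0.13). HSPD1 also turned with library size alone (-0.010) and with no filter (-0.0064). The replicate numbers share no stated day or batch, and the main fit did not take them as pairs. In the deposited labels, the NTC and sgJUN#1 libraries of replicates 1 and 2 carry consecutive numbers, and NTC replicate 3 has no such partner. The differences between replicates 1 and 2 in the 2 groups correlated over genes at 0.0146, which does not exclude pairing. The block called 0.756% of all genes, and the unblocked fit without NTC replicate 3 called 0.439%. Whether the libraries were paired was not tested.

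Leaving out 1 library gave -0.10 to 0.10 for HSF2, -0.15 to 0.33 for HSPA1A, -0.064 to 0.45 for HSPH1, -0.13 to 0.15 for HSPD1, -0.13 to 0.31 for HSP90AA1, -0.28 to 0.10 for HSP90AB1, -0.10 to 0.27 for PTGES3, -0.060 to 0.18 for DNAJA2, -0.17 to 0.020 for DNAJB6 and -0.13 to 0.34 for the ratio of HSPH1 to HSPA4. DNAJB1 kept its sign in all 11 alternatives (0.42 to 0.66, adjusted p-values 0.438 to 0.9996), as did HSPB8 (-1.79 to -0.99, 0.113 to 0.9996). JUN passed the threshold with DESeq2 (3.24, adjusted p-value 3.84e-11), with the replicate block (2.82) and without NTC replicate 2 or 3, and ran from 2.84 to 3.68 when 1 library was left out.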
